A study of Mus musculus with 16 samples.

Results

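The proteasome subunit gene promoters are the captured restriction fragments that hold the start of an autosomal protein-coding gene whose symbol begins with Psma, Psmb, Psmc, Psmd, Psme, Psmf or Psmg followed by a digit. The annotation held 49 such genes, and 47 of them started on a captured fragment, called a bait here. These 47 baits are 47 of the 18165 baits of the series. They took part in 917 of the 247177 fragment pairs, as 920 contact ends, since 3 pairs joined one proteasome promoter to another. Psmd9 and Psme2b-ps had no bait at their start, and Psmd10 lies on the X chromosome, outside the rule. Psmc3ip fits the rule by its symbol, but it encodes a factor of meiotic recombination and no proteasome subunit, and it is given apart.

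The contacts were measured by promoter capture Hi-C, in which ligated pairs of HindIII fragments are enriched for those with a promoter at one end. Livers of wild type C57BL/6 male mice, labelled as 8 weeks old and kept in 12 hours of light and 12 hours of dark and fed ad libitum, were taken at ZT0, ZT6, ZT12 and ZT18, counted from lights on. At each of the 4 timepoints there were 3 pools of 2 livers, 16 samples in all because 1 pool of each timepoint was run on a second lane. The study asked how contacts of promoters vary over the day beside the transcription of clock-controlled genes. The pools of a timepoint were merged before contacts were called, so every value below is 1 value per timepoint, without a replicate error and without a test. A contact was listed when its CHiCAGO score, which rises as the reads exceed those foreseen for the distance, was at least 5. Absence from a list is not a measured low contact, since the score may lie just below this limit. The lists held 146262, 154775, 151529 and 151347 pairs at ZT0, ZT6, ZT12 and ZT18. Contact lists carry no marker of cell types, so the liver label was not checked here, and whole liver mixes hepatocytes with other cells.

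The proteasome degrades proteins tagged with ubiquitin. Its core particle is a stack of rings of alpha and beta subunits, with the proteolytic sites on beta subunits, and its regulatory particle holds ATPases that unfold substrates and non-ATPase subunits that bind and trim ubiquitin. Immune signals replace the catalytic beta subunits by Psmb8, Psmb9 and Psmb10, which favours peptides for presentation on MHC class I, and Psmb11 does so in the thymus. Other members activate or inhibit the core particle, or act as chaperones of its assembly. The genes are scattered over the genome and are expressed in nearly all cells.

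The capture takes its promoters by fragment. The sequence windows below were set by distance from the gene start, so part of a window may lie outside the bait. 3 motifs were searched on both strands from 250 bases before to 50 after each start, and matches of different motifs may overlap: TGACNNNGC, the core of the antioxidant response element, CACGTG, the E-box that clock activators bind, and CCAAT, bound by NF-Y. TGACNNNGC was in 6 of the 47 member promoters (12.8%, 95% Wilson interval 5.98 to 25.2), against 13.2% of 16353 autosomal protein-coding starts on baits. CACGTG was in 6 (12.8%), against 8.51%, and CCAAT in 19 (40.4%), against 37%. The member shares thus lay within counting error of all promoters, and a match is a description of letters, not of a bound factor. The member windows held a median of 20 CG dinucleotides against 15 over all promoters, with the same median G and C content of 57.3%. The promoters of 5 members are shown over the 150 bases before the gene start because they carry a motif and belong to members described below. They were read from mm9, in the direction of the gene, with the motif in capitals. Psmb5 (chr14:55236852-55237001 on the minus strand), Psmb6 (chr11:70338719-70338868 on the plus strand) and Psmd7 (chr8:110112383-110112532 on the minus strand) hold TGACNNNGC, which Psmd7 has on the opposite strand. Psmb10 (chr8:108462293-108462442 on the minus strand) and Psme3 (chr11:101177377-101177526 on the plus strand) hold CACGTG.
Psmb5: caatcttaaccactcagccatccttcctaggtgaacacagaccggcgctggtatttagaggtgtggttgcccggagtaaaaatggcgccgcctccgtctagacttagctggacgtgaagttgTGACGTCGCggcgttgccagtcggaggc
Psmb6: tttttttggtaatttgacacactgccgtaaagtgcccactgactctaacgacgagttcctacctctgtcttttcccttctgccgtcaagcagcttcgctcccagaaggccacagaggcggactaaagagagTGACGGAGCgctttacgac
Psmd7: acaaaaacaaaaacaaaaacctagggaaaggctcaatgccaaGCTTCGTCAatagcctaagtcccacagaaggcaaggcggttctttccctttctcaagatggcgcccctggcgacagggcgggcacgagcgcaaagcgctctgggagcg
Psmb10: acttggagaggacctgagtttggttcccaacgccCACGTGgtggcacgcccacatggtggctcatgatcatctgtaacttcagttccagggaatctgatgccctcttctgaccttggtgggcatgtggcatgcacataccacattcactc
Psme3: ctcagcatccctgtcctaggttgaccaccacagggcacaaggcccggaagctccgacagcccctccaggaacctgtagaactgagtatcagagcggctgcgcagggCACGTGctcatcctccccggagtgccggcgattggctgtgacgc
The first base of the motif lay 28 bases before the start in Psmb5, 19 in Psmb6, 108 in Psmd7, 116 in Psmb10 and 44 in Psme3. The bait of Psmd7 ends at chr8:110112487, inside the printed stretch, and its motif lies across that end. The Psmd7 motif is thus not whole on the bait.

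Proteasome promoters had a median of 16 contacts over the 4 timepoints, with quartiles of 8 and 27 and a range from 1 to 73. Over all baits the median was 9, with quartiles of 4 and 21. Over baits with an autosomal protein-coding start it was 10, with quartiles of 4 and 22. Ribosomal protein promoters (65 baits) and respiratory chain promoters (82 baits), 2 other sets of genes in use in most cells, had a median of 13 each. Contacts were spread unevenly. The 7 members with at least 40 contacts, Psmb10, Psmb6, Psmc3, Psmc3ip, Psma5, Psma1 and Psmg4, held 37.3% of all 920 contact ends. Such well-connected baits made up 14.9% of the members and 9.50% of all baits, and baits with at most 5 contacts made up 21.3% and 35.6%. The members also lay among more promoters, with a median of 18 other baits within 500 kb against 13 over all baits. The median was 16 for ribosomal protein promoters, 17 for respiratory chain promoters and 14 for baits with an autosomal protein-coding start. Across the 47 members, the number of contacts went with the number of baits within 500 kb (Spearman's rho 0.47, a description over promoters that share libraries), and over all baits rho was 0.22. Among baits with 9 to 32 such neighbours, the 23 members had a median of 16 contacts and the 10047 baits a median of 9. Bait length was no like measure: its rho with contacts was 0.13 over the members and -0.04 over all baits, and the member baits were shorter, with a median of 4711 bp against 5861 bp.

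**Figure D1:**
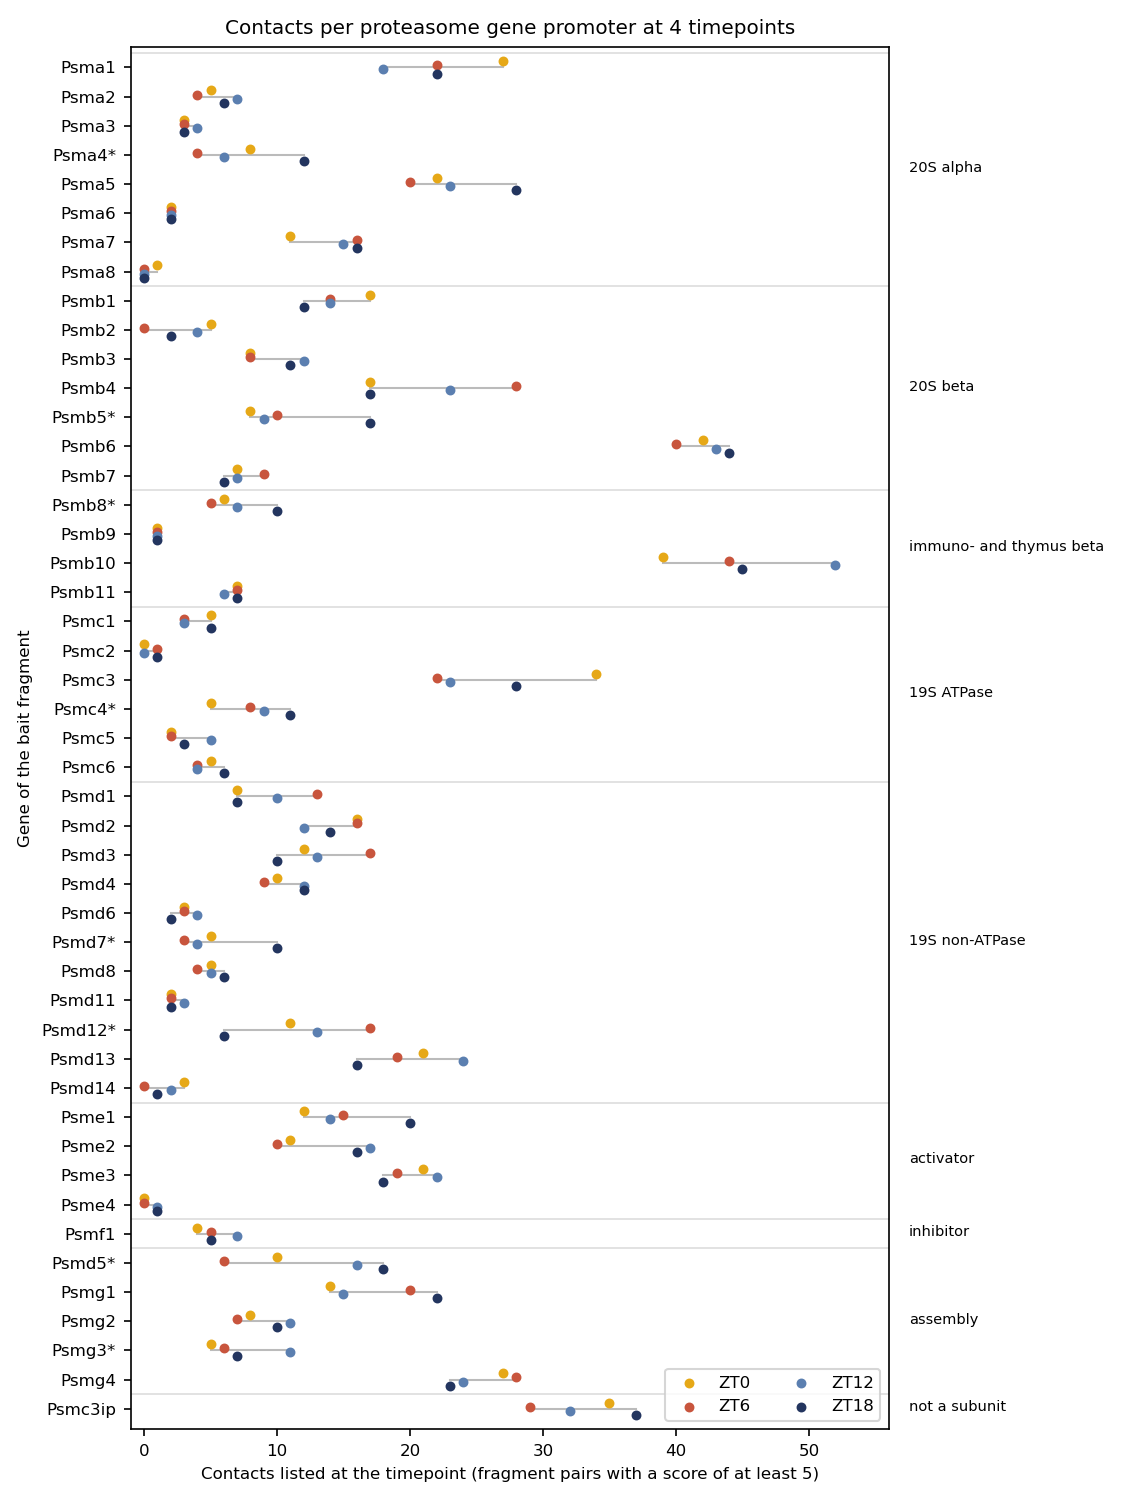
Contacts listed at ZT0, ZT6, ZT12 and ZT18 (horizontal axis, number of fragment pairs) for each of the 47 members, grouped by role. A point is 1 merged list, the line joins the lowest and highest timepoint, and an asterisk marks the 8 members with at least a 2-fold difference and at least 10 contacts at the highest timepoint. Psmb10 and Psmb6 stand apart, with 39 to 52 and 40 to 44 contacts.

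Among the alpha subunits of the core particle, Psma5 and Psma1 had the most contacts, 41 and 40 over the day. Psma5 had 22, 20, 23 and 28 at ZT0, ZT6, ZT12 and ZT18, and Psma1 had 27, 22, 18 and 22. Psma7 followed with 11, 16, 15 and 16, 18 in all. The others had fewer: 13 for Psma4, 8 for Psma2, 4 for Psma3, 2 for Psma6 and 1 for Psma8, a subunit of the testis. The low number of Psma6 did not go with low scores. Its bait (chr12:56484655-56486431) and the one of Nfkbia (chr12:56589724-56596601), the inhibitor of NF-kB, formed the pair with the highest mean score of any promoter-promoter contact of the members. They lay 108 kb apart, and their scores were 73.81, 81.2, 35.62 and 73.01 at ZT0, ZT6, ZT12 and ZT18. The score at ZT12 was thus the lowest of the 4, and with 1 value per timepoint its error is unknown. The other contact of Psma6, with the bait of Ppp2r3c, was listed at 5.46, 6.71, 13.52 and 7.61, with its highest score at ZT12. Psma8's single contact, with the bait of Kctd1, was listed at ZT0 only (5.82).

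Psma1 and Psma7 each had many contacts on 1 gene, which was picked for naming once its values were known. Of the 40 contacts of Psma1, 34 lay on the gene of the phosphodiesterase Pde3b, 138 to 253 kb away and upstream of Psma1, and 3 of the 34 were listed at all 4 timepoints. The strongest contact of Psma1, by mean score here and for the other members, lay beyond it, at the start of Calca, the calcitonin gene, with 14.09, 12.54, 11.92 and 7.68. The bait of Psma7 also holds the start of Ss18l1, so reads from the 2 promoters cannot be told apart. Its contacts turned to the other side, with 15 downstream of Psma7 and 3 upstream. Downstream, 9 of the 18 contacts of this bait lay on Taf4a, a subunit of the general transcription factor TFIID. Of the 9, 7 were listed at all 4 timepoints. The strongest by mean score, on an exon of Taf4a 122 kb away, had 20.51, 23.56, 27.84 and 23.66, and a fragment in an intron 128 kb away had 18.99, 30.4, 23.92 and 21.91. The strongest contacts of Psma5 were with the baits of Psrc1 (9.88, 15.46, 9.91 and 15.42) and Tmem167b (8.73, 10.2, 11.13 and 11.74), 127 and 306 kb away. The bait of Psma2, which also holds the start of Mrpl32, reached 658 kb, to the bait of the glycosyltransferase B3galnt2, with 19.39, 19.79, 21.78 and 25.04.

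The constitutive beta subunits ranged from 8 contacts for Psmb2 to 59 for Psmb6, with 37 for Psmb4, 29 for Psmb1, 19 for Psmb5, 16 for Psmb3 and 10 for Psmb7. Psmb6, a catalytic subunit, varied least between lists among the 7 members with at least 40 contacts, with 42, 40, 43 and 44, and 27 of the 59 were present in every list. Its bait also holds the start of Gltpd2, so reads from the 2 promoters cannot be told apart. 10 of its contacts lay on the kinase gene Mink1 and 4 on Chrne, a subunit of the acetylcholine receptor, and the strongest, with the bait at Gm12316 within Mink1, had 20.36, 22.39, 20.92 and 15.84. Psmb5, the chymotrypsin-like catalytic subunit, had 8, 10, 9 and 17 contacts, past the 2-fold limit described below. All 6 of its contacts present in every list had their highest score at ZT18, among them 21.05 after 17.68, 15.82 and 17.39 with the bait of Cdh24, 16.88 after 10.45, 11.03 and 9.45 with Cebpe, and 15.47 after 11.46, 11.8 and 13.7 with Haus4. Psmb2 had 5, 0, 4 and 2, so no contact was listed at ZT6, and none of its 8 was listed at all 4 timepoints.

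The immunoproteasome subunits held both ends of the scale. Psmb10 (bait chr8:108460449-108463253) had the most contacts of any member, 39, 44, 52 and 45, and 25 of the 73 appeared in every list. The strongest was with the bait of Cenpt, a kinetochore protein, and Thap11, 82.7 kb away, with 30.86, 32.32, 36.55 and 31.86. Psmb8 and Psmb9 lie side by side in the MHC region, each on a bait shared with a subunit of the peptide transporter, Tap2 and Tap1. Psmb9 had 1 contact, and it was the one with Psmb8's bait, 14.9 kb away, listed at every timepoint with 8.5, 10.76, 7.96 and 11.99. Psmb8 had 6, 5, 7 and 10 contacts. They included the bait of H2-DMa (8.13, 9.17, 5.99 and 11.77), which encodes a chaperone of MHC class II, that of H2-Ob at ZT6 (6.91) and ZT18 (5.96), and that of the heat shock genes Hspa1a and Hspa1l, 766 kb away, at ZT18 only (6.7). Psmb11 had 7, 7, 6 and 7 contacts. Its strongest, with the bait of Cebpe, had 10.24, 12.23, 8.12 and 7.56. It was thus lowest at ZT18, where the adjoining bait of Psmb5 had its highest score with Cebpe.

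In the regulatory particle, the ATPases had a median of 9 contacts, equal to that of all baits and below the 16 of all members. Psmc3 had the most, with 34, 22, 23 and 28, 45 in all. Psmc4 had 16, Psmc6 had 10, Psmc1 had 8, Psmc5 had 5 and Psmc2 had 2. Psmc3 was in contact with the baits of Celf1, an RNA-binding protein (15.07, 16.6, 18.69 and 18.58), and of Kbtbd4 and Ndufs3 (17.11, 15.28, 16.69 and 16.92). Psmc4 had 5, 8, 9 and 11 contacts, and its strongest was with the bait of Fbl, the methyltransferase fibrillarin (13.18, 18.2, 15.55 and 20.42). Both contacts of Psmc2, whose bait also holds the start of Dnajc2, were listed once. They were with the bait of Pmpcb at ZT6 (5.34) and an intron of Orc5 at ZT18 (5.3). In Psmc1, 6 of 8 contacts lay in 1 stretch 1014 to 1027 kb away, with 4, 3, 2 and 4 of them at ZT0, ZT6, ZT12 and ZT18.

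The non-ATPase subunits had a median of 18 contacts: 35 for Psmd13, 24 for Psmd12, 23 for Psmd4, 20 for Psmd3, 19 for Psmd1, 18 for Psmd2, 11 for Psmd7, 9 for Psmd8, and 4 each for Psmd6, Psmd11 and Psmd14, the deubiquitinase. Psmd13 had 21, 19, 24 and 16. Its bait also holds the start of the deacetylase gene Sirt3, and its strongest contact was with Rnh1, 290 kb away (13.64, 11.23, 11.63 and 12.36). Psmd2, which binds ubiquitin shuttles, had the largest share of lasting contacts among the 33 members with at least 10: 11 of 18 (61.1%) were listed at all 4 timepoints. Among them was the bait of Eif2b5, an initiation factor subunit, with 21.58, 19.55, 19.91 and 18.87. Psma4 had the smallest such share, 1 of 13 (7.69%). Psmd6, like Psma6, combined few contacts with a strong one: its pair with Thoc7, a factor of mRNA export, spanned 161 kb with 25.7, 37.87, 22.54 and 33.08. Psmd3 had its strongest pair with Gsdma, only 19.8 kb away (31.23, 17.98, 19.37 and 21.43).

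**Figure D2:**
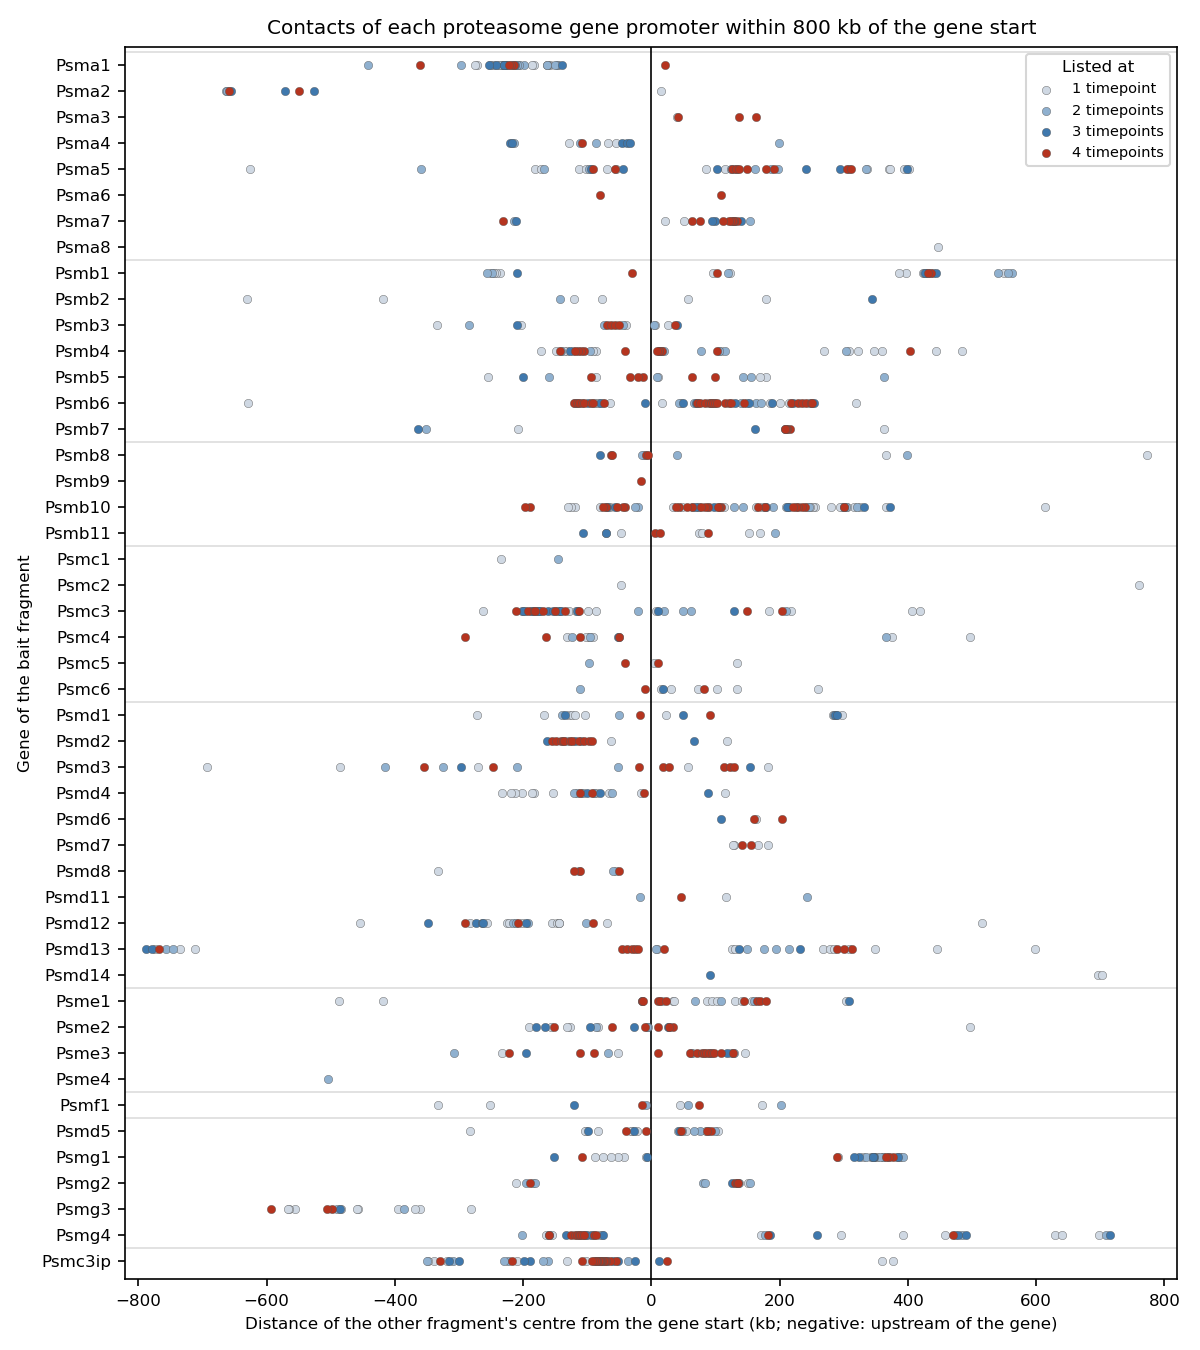
Position of the other fragment (horizontal axis, kb from the gene start, negative for upstream in the direction of the gene) for the 899 of 920 contacts within 800 kb, 1 row per member. Colours give the number of timepoints at which the contact was listed, and contacts often form tight groups, as at Pde3b for Psma1 and at Taf4a for Psma7.

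The activator subunits Psme1 and Psme2, which form 1 ring on the core particle, had 12, 15, 14 and 20 and 11, 10, 17 and 16 contacts. Their baits (chr14:56193774-56205391 and chr14:56208199-56211569) are 10.3 kb apart and were in contact at each timepoint, with 8.48, 7.13, 7.26 and 7.94. They shared 10 other ends, among them the baits of Tinf2, Rabggta, Dhrs1 and Cideb. Both baits hold other starts too, Fam158a and Fitm1 with Psme1 and Rnf31, a ubiquitin ligase, with Psme2. Psme3, the nuclear activator, had 21, 19, 22 and 18 contacts and 14 of 27 were listed at all 4 timepoints. The strongest lay between genes, 82.7 kb away (23.4, 30.87, 28.84 and 24.33). Psme4 had a single one, with the bait of Spnb2 at ZT12 (5.98) and ZT18 (6.64). The inhibitor Psmf1 had 4, 5, 7 and 5 contacts. Assembly chaperones had 15 to 40, with 27, 28, 24 and 23 for Psmg4, 14, 20, 15 and 22 for Psmg1, and 8, 7, 11 and 10 for Psmg2. 12 of the 40 contacts of Psmg4 lay on Bphl, a serine hydrolase gene, and the strongest had 11.41, 16.1, 12.58 and 18.81. Psmc3ip, the gene that is no subunit, had 35, 29, 32 and 37 contacts, and 21 of the 45 different ones were in every list.

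Contacts between proteasome promoters were few. Beside Psmb8 with Psmb9 and Psme1 with Psme2, only Psmc3ip and Psme3 met, 219 kb apart, with 8.1, 5.22, 5.35 and 5.32, and the last pair joins a subunit gene to a gene of another function. All 3 pairs were listed at all 4 timepoints and none crossed between chromosomes. No member had a listed contact with another chromosome, and such pairs were 0.0801% of the series. The members shared 38 other ends: 14 for Psmc3ip and Psme3, 10 for Psme1 and Psme2, 8 for Psmb5 and Psmb11, 2 for Psmb4 and Psmd4, 1 each for Psmc4 and Psmd8, Psmb11 and Psme1, and Psmb5 and Psme2, and 1 for Psmb5, Psmb11 and Psme2 together. Members with shared ends lie on 1 chromosome. The baits of Psmb5 (chr14:55233717-55244029) and Psmb11 (chr14:55244030-55244945) adjoin, so their shared ends are those of neighbouring fragments. No contact between these adjoining baits was listed, and whether such a pair could be listed was not tested. The start fragment of Psmd9 was listed only as the other end of the bait of Hpd, a liver enzyme of tyrosine breakdown, at ZT12 and ZT18.

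Of all member pairs, 267 (29.1%, 95% Wilson interval 26.3 to 32.1) were listed at all 4 timepoints, against 32.5% of all pairs of the series. At 1 timepoint only, 326 (35.6%, 32.5 to 38.7) were listed, against 35.2%. The share at all 4 lay slightly below that of all pairs, with an interval that ended just under it, and the share listed once held the value of all pairs within its interval. Intervals cover counting error only, and pairs of 1 bait are not independent. Ribosomal protein promoters had 30.1% and respiratory chain promoters 34.5% at all 4. Strong contacts were mostly present throughout: of the 181 member pairs with a score of at least 10 at any timepoint (19.7%, against 21.5% of all pairs), 163 (90.1%) were listed at all 4, as were 89.7% of such pairs of the series. When another end of the same bait within 10 kb was accepted as the same contact, 68.2% of member contacts and 68.5% of the contacts of all baits were found at all 4 timepoints. This tolerance can only raise the share.

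The other ends of member contacts were themselves baits in 354 of 920 (38.5%, 35.4 to 41.7), against 26.7% of contacts seen from all baits. Ribosomal protein promoters had a like share of 38.3%, and respiratory chain promoters 31.2%. Intergenic ends made up 17.1% (14.8 to 19.6) for the members, against 26.5%. Each end was put in 1 class, in the order bait, gene start, exon, intron, intergenic. Ends with an exon but no bait or gene start made up 27.4%, against 24.2%, and those within introns 15.9%, against 21.1%. The share with another bait was larger among higher scores, 46.3% of the members' contacts at a minimum of 7 and 56.6% (49.3 to 63.6) at 10, against 30.0% and 33.3% over all baits. Among baits with 9 to 32 other baits within 500 kb, the share at the minimum of 5 was 36.2% (31.7 to 40.8) for the 23 members. It was 29.1% for all such baits. The part of density in the difference was not tested.

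**Figure D3:**
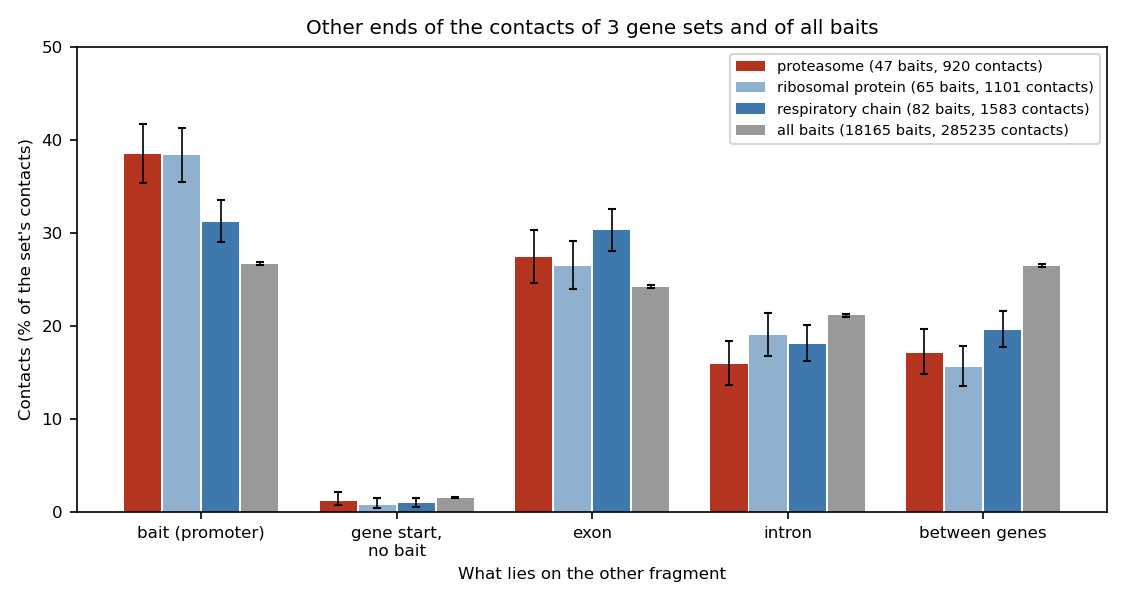
Share of contacts (vertical axis, % of the contacts of a set) by what lies on the other fragment, for the proteasome, ribosomal protein and respiratory chain promoters and for all baits. Bars start at 0 and whiskers are 95% Wilson intervals. Proteasome and ribosomal protein promoters reached other baits in 38.5% and 38.3%, all baits in 26.7%.

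Among these promoter-promoter contacts, the 20 with the highest mean score were each present in all 4 lists. Psmd12 met the bait of Nol11, a protein of ribosome biogenesis, 289 kb away, with 29.16, 30.48, 33.78 and 20.72. Psmc6 met Ero1l, an oxidase of the endoplasmic reticulum, 11.3 kb away, with 16.44, 16.39, 12.72 and 15.77. Psmc3ip met the baits of Ccr10 (33.33, 26.06, 34.09 and 31.37) and of Cntnap1 and Plekhh3 (27.82, 29.72, 28.62 and 26.8). Of the 20, Psma6 with Nfkbia had the widest spread of scores between lists.

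**Figure D4:**
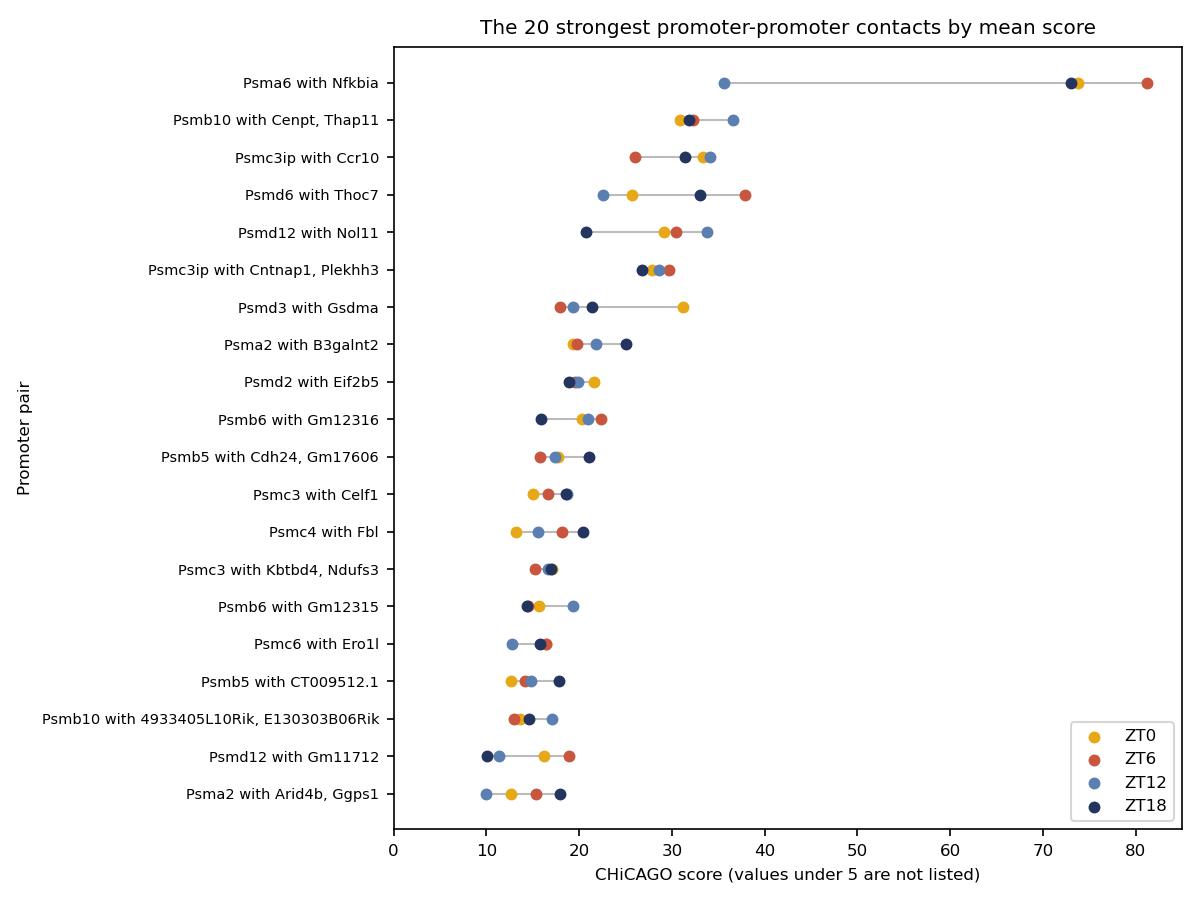
CHiCAGO scores (horizontal axis) at ZT0, ZT6, ZT12 and ZT18 of the 20 promoter-promoter contacts of the members with the highest mean score, 1 row per pair, named by the genes that start on the other bait. The line joins lowest and highest score. Psma6 with Nfkbia lies far to the right at 3 timepoints and at 35.62 at ZT12.

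Member pairs spanned a median of 142 kb (95% interval 133 to 154), less than the 162 kb of all pairs, and 47.9% (44.7 to 51.1) spanned over 150 kb, against 53.3%. Ribosomal protein promoters spanned 165 kb and respiratory chain promoters 154 kb. The median was 128, 135, 129 and 120 kb in the lists of ZT0, ZT6, ZT12 and ZT18, against 148, 150, 140 and 141 kb over all pairs, so members were shorter in each list. Contacts lay on both sides of the gene, 483 (52.5%) upstream and 437 downstream. In 9 of the 33 members with at least 10 contacts (27.3%), over 80% lay on 1 side, against 54.8% of the 8819 baits of the series with as many contacts. Psmg3 had all 16 upstream, Psmd12 23 of 24, Psmd4 21 of 23 and Psmc3ip 41 of 45.

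Over the day, members had 526, 522, 566 and 575 pairs at ZT0, ZT6, ZT12 and ZT18, which was 0.360%, 0.337%, 0.374% and 0.380% of each list. The median per member was 8, 8, 10 and 10 contacts, against 5 at each timepoint over all baits. After division by the list totals, 17 of the 47 members (36.2%) had most contacts at ZT18, against 26.6% of all baits. At ZT12 there were 13 (27.7%, against 21%), at ZT0 12 (25.5%, against 31.4%) and at ZT6 5 (10.6%, against 21%). Equal highest numbers fell to the timepoint with the shorter list. This placed Psma7, Psmd4, Psmc2 and Psme4 at ZT18, and Psma6, Psmb9, Psmb11, Psmc1 and Psmd2 at ZT0. Ties over all baits were not counted, so the shares of members and of all baits may differ in ties. Ribosomal protein promoters had 35.4% and respiratory chain promoters 42.7% at ZT18. The ZT18 number is not firm. Cut to equal lengths by score, the lists gave 10, against 17 at ZT0, with ties given to the earlier timepoint. By raw numbers, without division by the totals, 13 members were counted at ZT18 and 15 at ZT12. Here too ties went to the earlier timepoint. Psmd4 (12 each) and Psme4 (1 each) tied at ZT12 and ZT18, and Psma7 (16 each) and Psmc2 (1 each) at ZT6 and ZT18. The raw order of ZT12 and ZT18 thus rests on ties. The study also summarises its lists by timepoint, and there 3 of the totals stand under another timepoint than in the labels, all but that of ZT0. The labels were followed, and with the other order the 17 members would count for ZT12. In all, 13 member baits also hold the start of another protein-coding gene (27.7%). The share was 10.6% of baits with an autosomal protein-coding start, 32.3% of ribosomal protein and 41.5% of respiratory chain promoters. Over all baits, which include baits without such a start, it was 8.72%. Among the 34 members whose bait holds no other protein-coding start, 11 (32.4%) were highest at ZT18.

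After the same division, a difference of at least 2-fold between highest and lowest timepoint, with at least 10 contacts at the highest, was found in 8 of 47 members (17.0%), against 6.13% of all baits. Since few-contact baits cannot reach it, the 29 members with at least 10 contacts at a timepoint are the fairer base, of which it was 27.6%, against 16% of such baits. Ribosomal protein promoters had 28.1% on this base and respiratory chain promoters 15.4%. Of the 8, 6 were highest at ZT18, against 27.1% of the 1114 such baits of the series, and in the other order of the lists they would count for ZT12. They were Psma4 (8, 4, 6 and 12), Psmb5, Psmb8, Psmc4, Psmd5 (10, 6, 16 and 18) and Psmd7 (5, 3, 4 and 10). Psmd12 was highest at ZT6, with 11, 17, 13 and 6, and Psmg3 at ZT12, with 5, 6, 11 and 7. With a score of at least 7 there were 5 such members, and with one of at least 10 there was none.

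Contacts listed at a member's highest timepoint alone are a part of those behind these differences, and most had low scores. Over the 8 members there were 36, with a median score of 5.92 and a highest of 11.28. No like median was computed for other baits. In Psma4, which lies toward the iron regulator Ireb2, the contacts seen at ZT18 alone had 5.73, 5.12 and 5.08. The bait of Psma4 also holds the start of AY074887. In Psmd12, 19 of 24 contacts lay on Pitpnc1, a lipid transfer gene named after the values were seen, and 8, 13, 11 and 5 of them were listed at ZT0, ZT6, ZT12 and ZT18. Its contact with a bait inside Pitpnc1 was present in all lists, with 16.25, 18.89, 11.41 and 10.02. In Psmg3, 11 of 16 contacts lay on the checkpoint gene Mad1l1, with 3, 2, 9 and 4 per list, and the strong contacts at Mad1l1 (9.28, 16.7, 11.08 and 11.91) and Nudt1 (9.38, 16.55, 14.22 and 14.09) stayed in all. In Psmd5, an assembly chaperone, the baits of Phf19 (9.18, 6.67, 11.94 and 13.43) and Fbxw2 (10.3, 5.86, 8.58 and 11.54) were lowest at ZT6, the timepoint with fewest contacts.

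Psmd7, a lid subunit, had strong contacts far away. 5 of its 11 contacts lay 1974 to 2025 kb from its bait (chr8:110111380-110112487), with 2, 1, 2 and 5 of them in the lists of ZT0, ZT6, ZT12 and ZT18, and 3 at ZT18 only. The bait of the splicing helicase gene Dhx38 and of Txnl4b had 6.46, 9.68, 10.22 and 13.63, and that of Dhodh, an enzyme of pyrimidine synthesis, 6.38 at ZT0, 12.5 at ZT12 and 7.79 at ZT18. A fragment on an exon of Dhx38 was listed at ZT18 only, with 11.28. No other member except Psmc1 had more than 1 contact beyond 1000 kb.

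Psma5, Psma7 and Psmd13 are among the genes that the study lists with a circadian RNA, with the peak at ZT6 for Psma5 and at ZT12 for the other genes. Their contacts were most numerous at ZT18 for Psma5 (28), at ZT6 and ZT18 for Psma7 (16 each) and at ZT12 for Psmd13 (24). By the labels, Psma5 thus had its lowest number, 20, at its peak, and Psmd13 its highest. Both turn with the other order of the lists, where Psma5 would have 23 at ZT6, not its lowest, and Psmd13 16 at ZT12, its lowest. Psma7 had 15 at ZT12, its peak, by the labels. In the other order it would have 16 there, its highest number, as at ZT18. With 3 genes and 1 list per timepoint no relation can be read from this.

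Of 20 further genes of the pathway, 16 had a bait. Tap1 and Tap2 start on the baits of Psmb9 and Psmb8, and the other 14 had a median of 18 contacts, against 16 for the members. Shfm1, a small lid subunit, had 24, 20, 34 and 26 contacts at ZT0, ZT6, ZT12 and ZT18. Nfe2l2, the factor that binds antioxidant response elements, had 18, 20, 17 and 16. Among those past the 2-fold limit were Pomp, the maturation factor of the core particle (6, 7, 14 and 8), Rps27a (7, 12, 10 and 5) and Tap2, which shares Psmb8's bait. The segregase gene Vcp had 3, 2, 3 and 4. Usp14, Nfe2l1 and Paaf1 were without a bait under these names.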

How the data were processed

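Promoter capture Hi-C reads were mapped to mm9 and filtered with HiCUP by the authors, who merged the 3 pools of each timepoint and called contacts with CHiCAGO. What was deposited is a CHiCAGO score for each pair of fragments in the list of a timepoint, from a score of 5 upwards. Depth sets how many pairs pass, and the read depth was not used here. Timepoints followed the sample labels.

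Lists were read with python 3.11.15, pandas 2.3.3 and numpy 2.4.6. Pairs were treated as unordered. Gene starts came from the GENCODE annotation of mm9. A promoter-promoter contact has a bait of any timepoint at both ends, and distances run between fragment centres. For shares, scipy 1.17.1 gave 95% Wilson intervals, and these cover only the error of counting. The 2-fold rule used contact numbers divided by list totals. Counting was checked on simulated lists, where all contact numbers were recovered.

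The members and gene lists were chosen with earlier results of these data known. All members were named with their number of contacts. Single contacts were given for the best-connected member of each role, the 5 with fewest contacts, the immunoproteasome and activator genes, the members on the study's circadian list, pairs between members and members past the 2-fold rule. Pde3b, Calca, Taf4a, Mink1, Chrne, Bphl, Pitpnc1 and Mad1l1, and the contacts of Psma1, Psmd2, Psmc1 and Psmb11, were added after their values were seen. Some further genes of the pathway are not reported here.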

Additional observations from a re-analysis of the deposited data

How the results depend on the processing

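Of 157 values recomputed under other settings, 123 stayed within the interval of the main value or within 1.5 times a count. The leading timepoint changed with some settings. ZT18 led with 17 members, but ZT0 led with 17 in lists of equal length and ZT12 with 17 in the order of the study's summary. By raw numbers ZT12 had 15 and ZT18 had 13, an order that rests on ties given to the earlier timepoint. Ties also went to the earlier timepoint in lists of equal length, and their part in the 17 at ZT0 was not counted. At a minimum score of 7 and of 10, ZT18 still led, with 16 and 15 members, and ZT0 followed with 14 and 12. The median of 16 contacts was 7 at a minimum score of 7 and 3 at 10. The pairs at ZT0, ZT6, ZT12 and ZT18 were 247, 242, 281 and 282 at 7, and 103, 105, 113 and 122 at 10. The share at all 4 timepoints was 68.0% with another end within 10 kb accepted, and that at 1 timepoint only was then 11.1%. At a score of 10, the share at 1 timepoint only was 29.8%. The median distance was 127 kb at 7, 113 kb at 10, and 154 kb without baits shared with another protein-coding gene, and the share over 150 kb was 42.0%, 34.8% and 51.2%. The promoter-promoter share of pairs was 45.9% at 7 and 56.4% at 10, against 38.3% (and 15.4% over all pairs, each of which needs a bait at 1 end only). Members highest at ZT6 numbered 3 at 7, 2 at 10, 8 by raw numbers and 13 in the order of the study's summary, against 5. At ZT12 there were 7 at a score of 10 and 7 without shared baits, against 13. At ZT18 there were 10 with equal numbers of top-scoring pairs, 11 without shared baits and 5 in the order of the summary, against 17. Members past the 2-fold rule numbered 5 at 7 and 0 at 10, a plain count with no test, against 8. Contacts between members numbered 1 at a score of 10 and 1 without shared baits, against 3. Apart from the ties, the cause of these shifts was not tested. A higher minimum and fewer members leave fewer pairs by construction. Leaving out Psmb10 or members that share a bait was chosen after seeing the data. A bait within 5 kb was found for neither Psmd9 nor Psme2b-ps, so that alternative changed nothing. Its values could not differ, and they are among the 123. No paired analysis was possible because merging came before calling, and for that reason no replicate could be left out. At a score near 5, listing and absence cannot be told apart from noise in reads, and no error between animals is known.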
